A study of Mus musculus with 6 samples.

Results

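Interferon-stimulated genes are the antiviral and immune genes that a cell switches on when interferon reaches its receptor. This section describes 39 of them, chosen by name, in Pax5-/- pro-B cells that were given EBF. Pax5 is the factor that fixes B cell identity, and EBF is a transcription factor that acts before it. The cells were kept on a layer of ST2 stromal cells with 5 ng/ml IL-7, spin-infected with the Mig-EBF retrovirus or with the control MigR1 retrovirus, and sorted for GFP 2 days later, per the labels. Both groups therefore lack Pax5, carry a retrovirus and shared the culture with stromal cells. EBF was supplied from the viral vector. Each group has 3 arrays, numbered here as in the sample titles (EBF 1 to 3, control 1 to 3). The labels do not say that these were separate cultures, so p-values measure the spread between arrays, which may be technical.

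Of the 39 genes, 37 had a probe set listed for that gene alone, among 18193 genes on the array. Isg15 and Ifi44 had none and were not analysed here. Each gene was read at its brightest probe set over all 6 arrays. Values are intensities on a linear scale, and differences are EBF minus control on the scale of log2(intensity + 32). The mean over 6 arrays ranged from 115 for Mx1 to 6990 for Psmb8. Control probe sets for Bacillus transcripts, which mouse RNA should not light up, had a median of 103 and reached 410, and 6 of the 37 genes had a mean below that highest value. They were Usp18, Ifih1, Ifit2, Iigp1, Mx1 and Cxcl10.

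Type I interferons bind the receptor chains Ifnar1 and Ifnar2, and the kinases Jak1 and Tyk2 then activate a complex that holds Stat2 and Irf9. This complex binds the interferon-stimulated response element in the promoters of its targets. Interferon gamma uses the receptor chains Ifngr1 and Ifngr2 and drives genes through the gamma-activated site. The targets include sensors of viral RNA, enzymes that destroy it, and brakes on the pathway itself.

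Medians of the array intensities lay between 424 and 451, and no array was rescaled. The pro-B label was checked against 10 markers. Vpreb1 averaged 18553 in the controls and Cd93 8975.5. The pro-B markers summed to between 57348 and 60934 in the control arrays and between 67620 and 70572 in the EBF arrays. Such a sum of intensities follows its brightest probe sets and does not count cells. Dntt fell and Vpreb3 rose without a block, and Cd79b, Igll1 and Il7r were also higher in the fit with the replicate number as a block, described further on. Blnk, which depends on Pax5, read between 271 and 300.

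Most of the interferon-stimulated genes were lower in the EBF arrays, by small amounts. The log2 difference was below 0 for 29 of 37 genes, or 78.4%, against 41.9% of all genes. The median was -0.19, with values from -0.64 to 0.38, against a median of 0.03 over all genes. Without control 3 the median was -0.077, with 24 genes below 0, and it was -0.123 without EBF 1 and -0.303 without EBF 3. In the fit with group as its 1 term, 1 gene fell and 0 rose (limma, adjusted p under 0.05), where 0.671% of all genes fell and 0.418% rose (1.09% in all). At an unadjusted p under 0.05, 11 were lower and 1 was higher, and 5 and 2 without control 3. For all genes the shares over all 6 arrays were 6.23% and 13.4%, and those without control 3 were not counted. The arrays of the groups did not overlap for 9 genes that were lower and 1 that was higher, beside 8.06% and 17.2% of all genes. An array reads a mixture, so fewer cells of a type and less RNA per cell cannot be told apart.

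**Figure D1:**
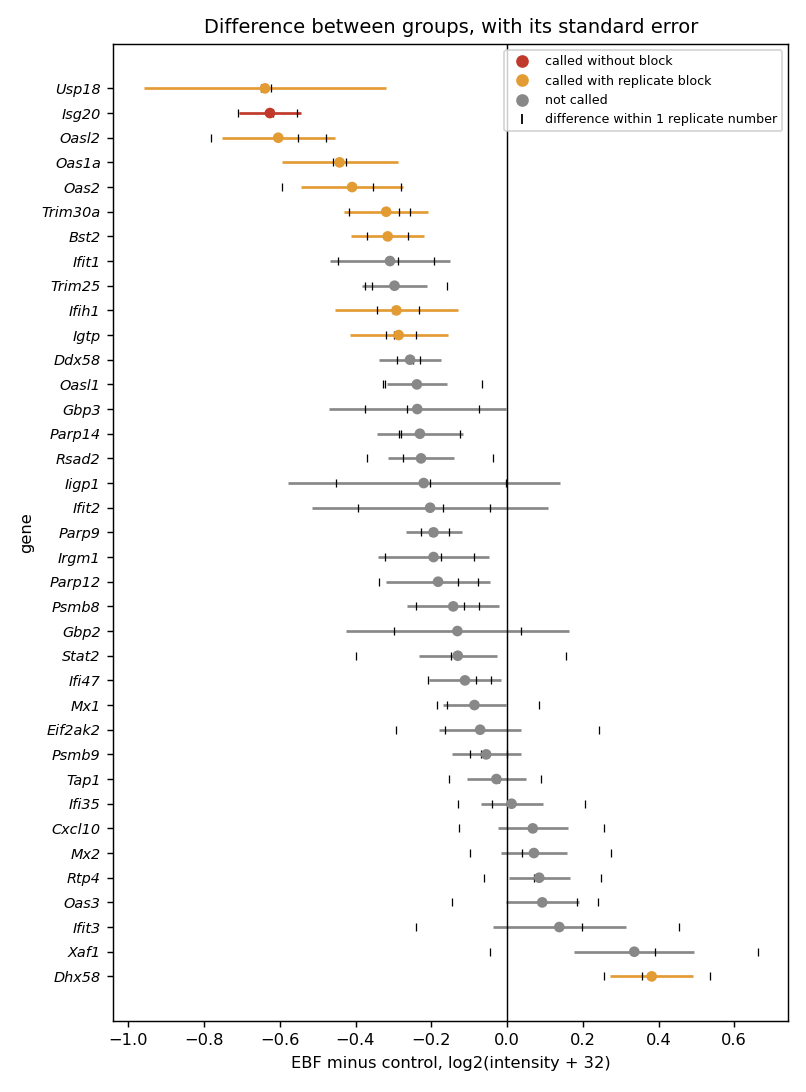
Difference between EBF and control arrays for each of 37 interferon-stimulated genes, in log2(intensity + 32). Points are the difference of group means, horizontal lines are 1 standard error from the fit without a block, and ticks are the differences within each replicate number; most points lie left of 0, Isg20 passes in the fit without a block and 9 more genes in the blocked fit.

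The arrays of replicate number 3 were the brightest for these genes in both groups. Control 3 was the highest control for 28 of the 37 genes and EBF 3 the highest EBF array for 28, and both held for 23 genes (62.2%), against 13.2% of all genes. Relative to the control mean, the median over the 37 genes was -0.05, -0.11 and 0.14 in control 1 to 3 and -0.28, -0.31 and -0.04 in EBF 1 to 3. The third EBF array thus lay level with the first control array, so the groups overlap in this median. EBF 2 was the lowest of all 6 arrays for 18 genes and EBF 1 for 9, while control 3 was the highest of all 6 for 26.

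**Figure D2:**
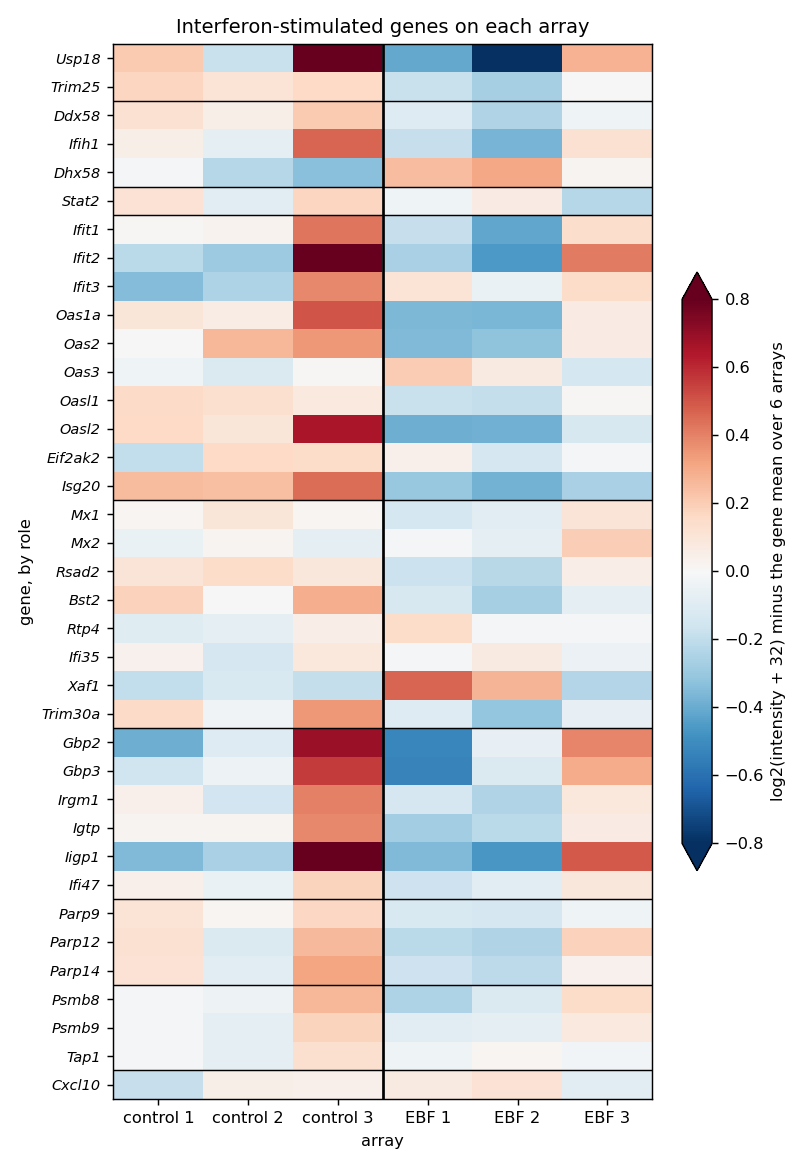
Each of 37 interferon-stimulated genes (rows, grouped by role) on 6 arrays (columns), as log2(intensity + 32) minus the mean of the gene over all 6 arrays. Red is above that mean and blue below, with colours at their end beyond 0.8; control 3 is the reddest column, EBF 1 and EBF 2 are the bluest, and EBF 3 lies between them.

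Because the replicate number moved with these genes, each was also compared within its number. Over the brighter part (mean above the median) of probe sets, same-numbered arrays deviated together from their group means, with correlations of 0.316, 0.251 and 0.505 for numbers 1 to 3. On that basis arrays of 1 number were treated as a pair, which the labels themselves do not state. Within the numbers, the median difference was -0.21, -0.15 and -0.24 for pairs 1 to 3, beside 0.04, 0.00 and 0.05 over all genes. EBF was below control in all 3 pairs for 23 of 37 genes (62.2%), and it was so for 17.3% of all genes. A fit with the replicate number as a block, called the blocked fit from here on, found 9 genes lower and 1 higher. It found 2.51% of all genes lower and 4.8% higher.

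**Figure D3:**
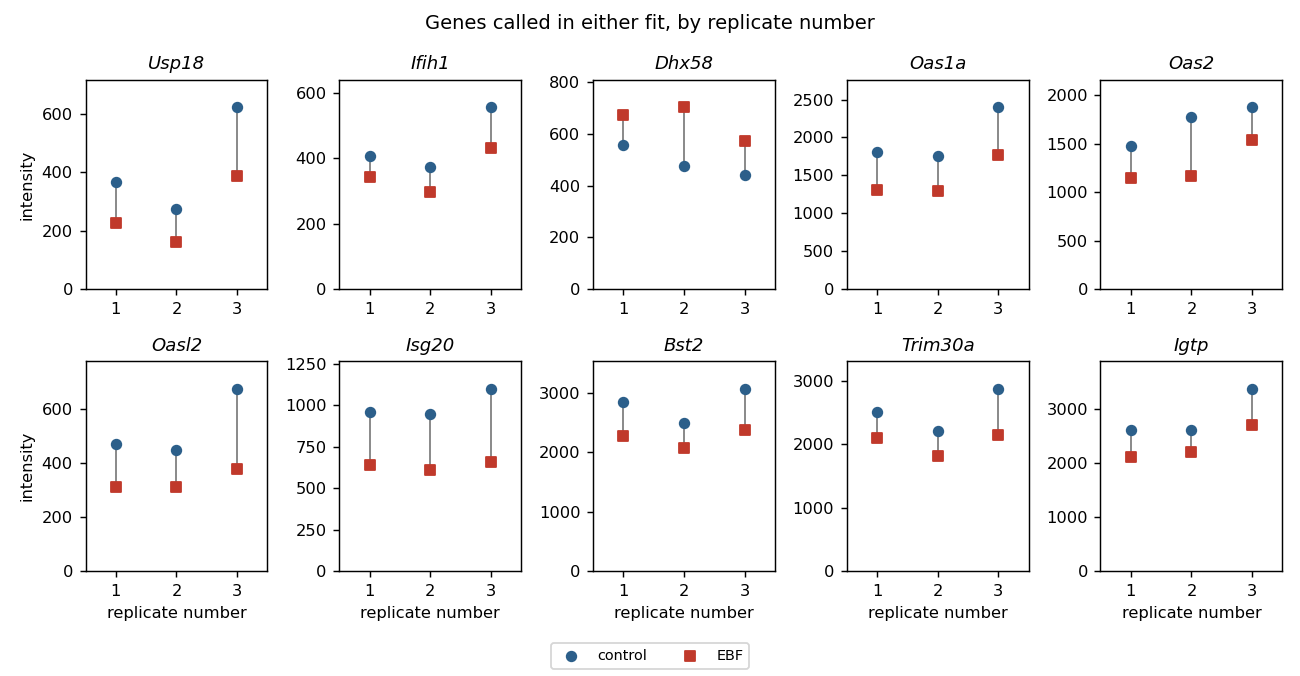
Intensity of the 10 genes called in either fit (panels) by replicate number, with control arrays as blue circles and EBF arrays as red squares, joined within a number; each axis starts at 0. The EBF square is below the control circle in every pair of every gene except Dhx58, where it is above in all 3.

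Promoter sequences came from RefSeq (GRCm38.p6), as windows from 250 bases before to 50 after a start site, and 30 of the 39 genes had at least 1. Letters searched on both strands were GAAANNGAA, the core of the interferon-stimulated response element, TTCNNNGAA, the gamma-activated site, and CCCNNGGGA, the core of an EBF site. The first was in a window of 19 of 30 genes (63.3%), against 9.76% of the 27025 genes in the table, and 10 of the 30 had at least 2 matches in 1 window (0.736% of all genes). The second was in 8 (26.7%, against 9.55%). The EBF core was in 3, Trim25, Parp12 and Cxcl10 (10%, against 7.48%). Matches of the first and second overlapped by at least 1 base in 1 window, that of Bst2. A match describes letters and was not tested for binding.

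Stretches of 60 bases around a match follow for genes lower in the blocked fit and for others with a match that were high in number 3, to show the letters and their spacing. Where a window holds several matches, the stretch is around the 1 nearest its start site. Capitals mark the response element core on either strand (on the other strand it starts and ends with TTC), and all run 5′ to 3′ along the gene. Trim30a has another window with a match, at 4 bases from its start site, which is not shown. Usp18, Oas2, Dhx58 and Iigp1 are named without a sequence. Ifit2, also high in number 3, has no response element letters in its windows, and 1 of them holds the gamma-activated site letters at -241. The first group holds Ifih1 (chr2:62646206-62646265, minus strand), Oas1a (chr5:120907506-120907565, minus), Bst2 (chr8:71537563-71537622, minus), Trim30a (chr7:104465195-104465254, minus) and Igtp (chr11:58199496-58199555, plus).
Ifih1: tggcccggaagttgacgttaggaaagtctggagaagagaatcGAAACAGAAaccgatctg
Oas1a: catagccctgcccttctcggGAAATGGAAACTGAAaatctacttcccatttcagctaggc
Bst2: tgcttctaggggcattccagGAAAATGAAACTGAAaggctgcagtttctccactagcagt
Trim30a: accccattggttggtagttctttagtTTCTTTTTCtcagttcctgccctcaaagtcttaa
Igtp: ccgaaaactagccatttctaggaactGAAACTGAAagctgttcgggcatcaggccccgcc

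Oas1a and Bst2 carry a pair of overlapping cores, and Ifih1, Trim30a and Igtp carry 1 in the stretch shown. The second group holds Ifit1 (chr19:34640779-34640838, plus), Ifit3 (chr19:34583401-34583460, plus), Gbp2 (chr3:142620579-142620638, plus), Gbp3 (chr3:142559980-142560039, plus) and Irgm1 (chr11:48871411-48871470, minus).
Ifit1: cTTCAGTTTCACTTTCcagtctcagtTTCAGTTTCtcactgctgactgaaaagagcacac
Ifit3: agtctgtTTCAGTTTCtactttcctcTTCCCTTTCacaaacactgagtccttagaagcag
Gbp2: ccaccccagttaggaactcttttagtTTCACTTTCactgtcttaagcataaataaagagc
Gbp3: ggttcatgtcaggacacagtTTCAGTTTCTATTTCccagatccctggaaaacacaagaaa
Irgm1: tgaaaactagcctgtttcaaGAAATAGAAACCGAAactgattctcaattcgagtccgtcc

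Isg20 and Oasl2, which had differences next to that of Usp18 in size, did not have the response element letters in their windows. Of 3 Isg20 windows, the 1 with a gamma-activated site match, in capitals (chr7:78913174-78913473, plus strand), and the Oasl2 window with no match to any of the 3 motifs (chr5:114896684-114896983, plus) are given whole.
Isg20: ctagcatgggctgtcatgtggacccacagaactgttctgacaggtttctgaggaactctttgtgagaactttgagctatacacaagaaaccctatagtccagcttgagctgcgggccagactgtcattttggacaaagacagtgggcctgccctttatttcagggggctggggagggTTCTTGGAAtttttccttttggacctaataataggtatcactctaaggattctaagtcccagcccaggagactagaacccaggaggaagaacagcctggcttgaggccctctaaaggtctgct
Oasl2: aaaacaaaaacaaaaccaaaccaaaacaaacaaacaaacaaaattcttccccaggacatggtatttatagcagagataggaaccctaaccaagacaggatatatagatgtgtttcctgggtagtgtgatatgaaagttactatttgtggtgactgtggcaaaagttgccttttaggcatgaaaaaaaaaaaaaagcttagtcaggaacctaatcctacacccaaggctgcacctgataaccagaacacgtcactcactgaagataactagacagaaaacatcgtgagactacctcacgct

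The 17 measured genes with a match had a median difference of -0.24, and the 11 with a window and no match had -0.14. Number 3 exceeded the other controls by a median of 0.28 with a match and 0.20 without, and the other EBF arrays by 0.22 and 0.19. It was the highest in both groups for 11 of the 17 genes with a match and for 7 of the 11 without, which are similar shares. These differences between genes with and without the letters were not tested. Psmb9 and Tap1 are transcribed away from each other, and their windows share 275 bases, which hold none of the 3 motifs.

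Isg20, an RNA exonuclease that degrades viral RNA, was the gene that fell in both fits. It read 956.5, 948 and 1099 in control 1 to 3 and 641.5, 607 and 660 in EBF 1 to 3. Every EBF array was below every control array. Of its 3 promoter windows, 1 holds the gamma-activated site letters and none a response element core. The fold was 1.54, from 1001 ± 85.0 to 636 ± 27.0 (SD, n = 3 per group; log2 -0.63 ± 0.08 SE, limma adjusted p = 0.0145, blocked 0.0025). Without 1 array, the adjusted p of the fit without a block was 0.0667 (EBF 1), 0.0927 (EBF 2), 0.0101 (EBF 3), 0.0645 (control 1), 0.0635 (control 2) and 0.0476 (control 3). The blocked fit called it without any 1 replicate number, with an adjusted p of at most 0.0418.

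Usp18, the protease that removes Isg15 from proteins and dampens signalling at Ifnar2, had the lowest difference of all 37 genes. It read 369, 274.5 and 624 in control 1 to 3 and 228, 163 and 388 in EBF 1 to 3. Of these values, only that of control 3 was above the highest Bacillus control, 410. The groups overlap, since EBF 3 lies above control 1 and control 2. The difference was nonetheless nearly the same in each pair, at -0.62, -0.65 and -0.64. The standard error shrank from 0.32 without the block to 0.07 with it, and the adjusted p went from 0.317 to 0.0019. The blocked call held without number 1 (adjusted p = 0.0425), 2 (0.0168) or 3 (2.95e-05). Trim25, an E3 ligase that acts with RIG-I and in Isg15 conjugation, was bright, at 5103, 4878 and 5049 in the controls and 3980, 3754 and 4519 in EBF 1 to 3. The arrays did not overlap, but neither fit called it (log2 -0.30 ± 0.085; adjusted p = 0.147, blocked 0.0555). Its other probe sets had differences of -0.20 and -0.17.

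The oligoadenylate synthetases make the second messenger that activates RNase L when viral RNA is present. Oas1a, with its pair of response element cores, read 1803, 1755 and 2401 in control 1 to 3 and 1302, 1298 and 1763 in EBF 1 to 3. Each EBF array was below its partner by almost the same amount (-0.46, -0.43 and -0.44), while EBF 3 reached the level of control 1 and control 2. The difference was -0.44 ± 0.15, with an adjusted p of 0.191 and a blocked one of 0.0107. Oas2 read 1473, 1781 and 1880 in the controls and 1146, 1170 and 1543 in EBF 1 to 3, again with EBF 3 above control 1 (log2 -0.41 ± 0.13; 0.178, blocked 0.0238). Oas3 was not lower, with a log2 difference of 0.09 (adjusted p = 0.632, blocked 0.572), and its pairs had different signs.

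Oasl2, a relative of the synthetases that is induced with them, read 471, 449 and 675 in control 1 to 3 and 311.5, 313 and 379.5 in EBF 1 to 3. All EBF arrays were below all control arrays, and all EBF values were below the highest Bacillus control, 410. The fold was 1.52 (log2 -0.60 ± 0.15; adjusted p = 0.115, blocked 0.00507). Oasl1, a related gene, had a smaller difference of -0.24 with arrays that did not overlap, and it passed in neither fit (0.182, blocked 0.114). Its differences in pairs 1 to 3 were -0.33, -0.32 and -0.07, the last close to 0.

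The other RNA-binding effectors gave weaker or mixed values. Ifit1, which binds viral RNA ends and blocks translation, read 764, 776 and 1031 in the controls and 664, 561 and 839 in EBF 1 to 3. EBF was lower in all 3 pairs, but the blocked adjusted p was 0.0504 (0.327 without the block). Ifit2 read 310, 293 and 665.5 in the controls and 299, 257 and 499 in EBF 1 to 3, so most of its range lay between number 3 and the rest. Ifit3 had a log2 difference of 0.14 and was higher in pairs 1 and 2 and lower in pair 3. Eif2ak2, the kinase PKR that halts translation on viral RNA, had -0.07 (adjusted p = 0.756, blocked 0.718).

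The 3 cytosolic RNA helicases that sense viral RNA were read at moderate brightness. Ifih1 encodes MDA5, a sensor of long double-stranded RNA. It read 408, 373 and 557 in control 1 to 3 and 342.5, 297 and 432 in EBF 1 to 3, lower in each pair, with EBF 3 above control 1 and 2 (log2 -0.29 ± 0.16; adjusted p = 0.365, blocked 0.0468). Only its arrays of number 3 were above the highest Bacillus control, 410. Ddx58 encodes RIG-I, a sensor of short RNA with a free end. It read 1145, 1086 and 1219 in the controls and 971, 882 and 1021 in EBF 1 to 3, which do not overlap (log2 -0.26; 0.173, blocked 0.0671). A dimmer Ddx58 probe set had 0.25, also without overlap but with all EBF arrays higher, and another had -0.14. None of them was called, and the probe sets of Ddx58 thus disagree in direction.

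Dhx58 encodes LGP2, which tunes both other sensors, and its probe sets disagreed. The brightest read 559, 476 and 440 in control 1 to 3 and 673, 704 and 572 in EBF 1 to 3, all EBF arrays higher (log2 0.38 ± 0.11; adjusted p = 0.148, blocked 0.0271). The next read 618, 555 and 768 in the controls and 465, 377 and 543 in EBF 1 to 3, all EBF arrays lower (log2 -0.46; 0.172, blocked 0.0101). The dimmest was also lower, from 299, 438 and 344 to 195, 229 and 242 (log2 -0.62; 0.0864, blocked 0.00657). With the mean of its 3 probe sets the gene had -0.23 (adjusted p = 0.0901, blocked 0.0538). No direction can therefore be given for Dhx58 as a gene.

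Among the other antiviral effectors, Bst2 and Trim30a were lower in the blocked fit. Bst2 encodes tetherin, which holds budding virions at the cell surface. It read 2846, 2493 and 3073 in control 1 to 3 and 2283, 2074 and 2371 in EBF 1 to 3, without overlap (log2 -0.32 ± 0.10; adjusted p = 0.161, blocked 0.0375). Trim30a, a regulator of innate signalling, read 2505.5, 2205 and 2870 in the controls and 2093, 1804 and 2141 in EBF 1 to 3, also without overlap (-0.32 ± 0.11; 0.192, blocked 0.039). Its other probe set had -0.42, with a blocked adjusted p of 0.0134. Rsad2, which encodes viperin, did not overlap either but passed in neither fit (-0.23; 0.219, blocked 0.139).

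The remaining genes of this kind were called in neither fit. Mx1 had -0.09 (adjusted p = 0.601, blocked 0.561) and read at most 126 on any array, close to the Bacillus control median of 103. Mx2 (0.07), Rtp4 (0.09) and Ifi35 (0.01) passed in neither fit, and Ifi35 turned to -0.004 with quantile normalization and -0.017 with median scaling. Xaf1, a partner of the apoptosis inhibitor XIAP, read 5987 and 5221 in EBF 1 and EBF 2 but 3668 in EBF 3, below its 3 controls at 3771, 3976 and 3787. Its difference was 0.34 ± 0.16 (adjusted p = 0.295, blocked 0.119), and 0.54 without EBF 3 (adjusted p = 0.0143). Without EBF 3, 7.08% of all genes were higher.

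The interferon-inducible GTPases attack the vacuoles of intracellular pathogens, and all 6 had a difference below 0 and were highest in number 3 of both groups. Without control 3, Gbp2 (0.18) and Iigp1 (0.20) turned above 0. Iigp1 read 255, 274 and 671.5 in control 1 to 3 and 254, 233.5 and 482 in EBF 1 to 3. Number 3 exceeded the mean of numbers 1 and 2 by 1.25 (log2) in the controls and by 0.90 in the EBF arrays. Gbp2 read 552, 681 and 1202 in the controls and 501.5, 699 and 971.5 in EBF 1 to 3, while number 3 exceeded the others by 0.66 and 0.62 for Gbp3. Between groups the differences were -0.22 for Iigp1, -0.13 for Gbp2 and -0.24 for Gbp3, none of them called.

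Igtp was the 1 GTPase gene that the blocked fit called. It read 2605, 2607 and 3368 in control 1 to 3 and 2112, 2204 and 2693 in EBF 1 to 3, so that EBF 3 was above control 1 and 2 (log2 -0.29 ± 0.13; adjusted p = 0.275, blocked 0.0493). Ifi47, the brightest of the GTPase genes, read 4110, 3859 and 4525 in the controls and 3553, 3749.5 and 4269 in EBF 1 to 3 (log2 -0.11; 0.552, blocked 0.406). Irgm1 had -0.19 (0.494, blocked 0.167), and both were lower in all 3 pairs.

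**Figure D4:**
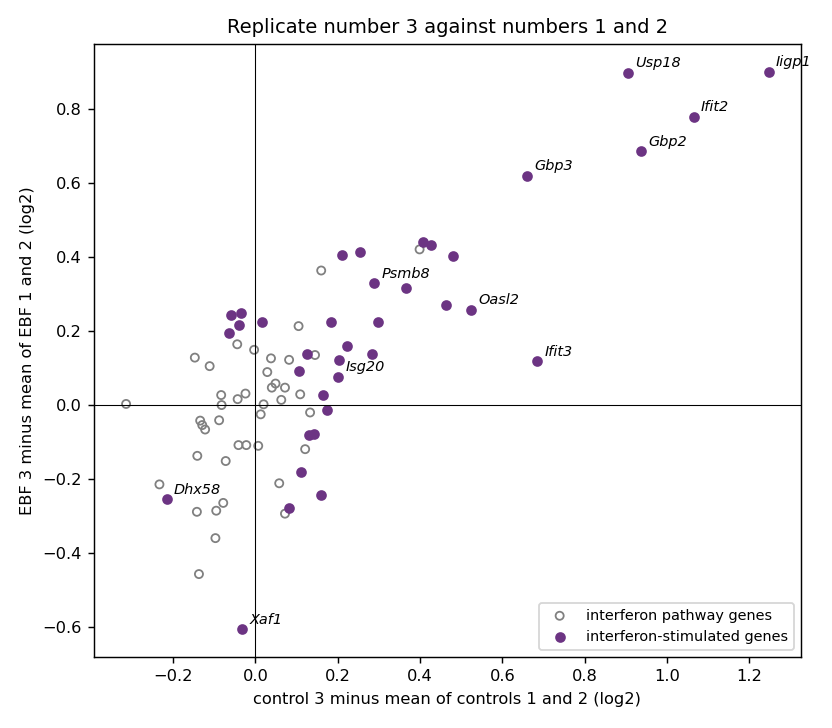
Replicate number 3 against the mean of numbers 1 and 2 (log2), in controls on the horizontal axis and in EBF arrays on the vertical axis, for 37 interferon-stimulated genes (filled) and 42 other interferon pathway genes (open). The filled points spread to the upper right, led by Iigp1, Ifit2, Gbp2 and Usp18, while Xaf1 and Dhx58 lie below 0 on both axes.

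The Parp family, named for the transfer of ADP-ribose to proteins, gave differences of -0.19 (Parp9), -0.18 (Parp12) and -0.23 (Parp14). Parp9 read 2673, 2513 and 2790.4 in the controls and 2279.5, 2257 and 2419.9 in EBF 1 to 3, without overlap. All 3 were lower in every pair and highest in number 3 of both groups, and none passed in either fit. The antigen processing genes were bright. Psmb8, an immunoproteasome subunit, read 6893, 6754 and 8337 in control 1 to 3 and 5838, 6418 and 7699 in EBF 1 to 3, which overlap (log2 -0.14; adjusted p = 0.552, blocked 0.282). Psmb9 had -0.06 and the peptide transporter gene Tap1 -0.03. Cxcl10, a chemokine that draws activated T cells, read between 134 and 173 on all arrays, not far above the Bacillus control median. Stat2, a part of the complex that switches these genes on, read 780, 670 and 811 in the controls and 701, 750.5 and 607.5 in EBF 1 to 3, with pairs of different sign.

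Of the 37 genes, 15 had several probe sets, and for 8 of these the signs differed between probe sets. They are Ddx58, Dhx58, Eif2ak2, Ifi35, Psmb8, Rsad2, Tap1 and Xaf1. Over all 60 probe sets of the 37 genes, 1 was lower without the block, and 12 were lower and 1 higher with it. The 12 hold more than 1 probe set of Dhx58 and of Trim30a. The share over all probe sets was not counted, so these counts have no background. Of the 10 genes called in the blocked fit, 5 had groups that overlap. All of the 10 except Isg20 were called only with the block, so those calls rest on the pairing. When both arrays of a number were left out of the blocked fit, 2 genes were lower without number 1 (Usp18 and Isg20) and 3 without number 2 (those and Oasl2). Without number 3, 9 were lower and 3 higher. All genes had 0.451%, 0.89% and 5.29% lower in these 3 fits, and 0.253%, 0.775% and 9.14% higher.

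The pathway upstream was read from a list of 48 genes that holds none of the 39, of which 42 were measured. Samhd1 fell and 0 genes rose (limma), where 0.671% and 0.418% of all genes did. At an unadjusted p under 0.05, 10 were lower and 3 higher, beside 6.23% and 13.4% of all genes. The blocked fit found 6 lower and 2 higher (4.76%), beside 2.51% and 4.8% of all genes, so the share higher is that of the background. The median difference of the 42 genes was -0.03, and number 3 was the highest in both groups for 5 of them (11.9%), close to the 13.2% of all genes.

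Ifnb1, a type I interferon gene like the Ifna genes, read 276, 238 and 238 in control 1 to 3 and 382, 334 and 272 in EBF 1 to 3, all below the highest Bacillus control (log2 0.35 ± 0.12; adjusted p = 0.186, blocked 0.0391). The other 6 measured interferon genes passed in neither fit, with log2 differences from -0.16 to 0.245. Number 3 was not the highest array in both groups for any of the 7 measured interferon genes.

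Of the receptor chains and kinases, Ifnar2 and Ifngr1 were lower in the blocked fit. Ifnar2, the signalling chain for type I interferon, read 2443, 2628 and 2459 in the controls and 1967, 2048 and 2030.1 in EBF 1 to 3, without overlap (log2 -0.31 ± 0.07; adjusted p = 0.0914, blocked 0.0378). Its other probe sets had -0.40 (blocked adjusted p = 0.0283) and 0.008. Ifngr1, the binding chain for interferon gamma, read 3669, 3535 and 3289.9 in the controls and 2820.3, 2900 and 2753 in EBF 1 to 3 (-0.30 ± 0.07; 0.109, blocked 0.0427). For both, number 3 was the highest array in neither group. The other 5 passed in neither fit, with differences from -0.21 to 0.19.

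Among the transcription factors, Irf7 and Irf9 differed in opposite directions. Irf7, which drives interferon genes and is itself induced by interferon, read 562, 504 and 712 in control 1 to 3 and 389, 309 and 475 in EBF 1 to 3. The values of EBF 1 and EBF 2 were below the highest Bacillus control, 410. Number 3 was highest in both groups, and the groups did not overlap (log2 -0.57 ± 0.16; adjusted p = 0.147, blocked 0.00413). Irf9, the DNA-binding part of the complex with Stat2, read 1726, 1778 and 1591 in the controls and 2500.1, 2352 and 1759 in EBF 1 to 3, where EBF 3 was below control 2 (0.35 ± 0.13; 0.201, blocked 0.0451). Stat3 was lower in the blocked fit at its brightest probe set (-0.33; adjusted p = 0.127, blocked 0.0337). Another Stat3 probe set had -0.63 and was called in both fits (adjusted p = 0.0115, blocked 0.00237), and the others had -0.25 and 0.02 with no call. The other 4 passed in neither fit, with differences from -0.33 to 0.10.

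Of the inhibitors, Samhd1, which removes the nucleotides that viruses need, fell 1.69-fold. It read 3310, 3289.8 and 3692 in control 1 to 3 and 1854, 1848 and 2389 in EBF 1 to 3, without overlap (log2 -0.76 ± 0.11; adjusted p = 0.0241, blocked 0.00118). Of its other 4 probe sets, 1 had -0.47 and 3 lay between 0.02 and 0.05. The call of Samhd1 without a block was lost without any 1 array other than EBF 3, and also with the mean of its probe sets. Ptpn6, the phosphatase Shp1 that restrains Jak kinases, was lower in the blocked fit at its brightest probe set (log2 -0.38; adjusted p = 0.0718, blocked 0.0263). Its other probe set had -0.61 and was called in both fits (adjusted p = 0.0416, blocked 0.00662). The other 5 passed in neither fit, with differences from -0.07 to 0.08. None of the 11 measured genes of sensing passed in either fit, the smallest p-values being those of Unc93b1 (-0.19; adjusted p = 0.221) and Tlr7 (-0.175; 0.224). None of the 3 genes of Isg15 conjugation passed at its brightest probe set, the smallest p-values being those of Herc6 (0.22; 0.278) and Ube2l6 (-0.025; 0.873). Another probe set of Uba7, the enzyme that activates Isg15, had -0.435 without overlap (adjusted p = 0.0523, blocked 0.0132), while its brightest had -0.02 and the remaining one 0.15. The other Herc6 probe sets ranged from -0.13 to 0.52 with no call.

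Markers of other cells were set beside these values, again as sums that follow the brightest probe sets and do not count cells. The 10 ST2 stroma markers summed to 16272, 22631 and 28844 in control 1 to 3 and 21610, 14529 and 19133 in EBF 1 to 3, and 3 of them (Cxcl12, Fn1 and Thbs1) were highest in number 3 of both groups. Cxcl12 read 1426, 2147 and 4593 in the controls and 1631, 1004 and 2872 in EBF 1 to 3. No stroma marker was called in either fit. Over all genes, number 3 was the highest in both groups for 13.2%. The 8 markers of plasmacytoid dendritic cells, which make much interferon, summed to between 9145 and 9329 in the controls and between 7757 and 8397 in the EBF arrays. Ccr9 was the 1 of them that fell (log2 -0.73). At their brightest probe sets the others passed in neither fit. Their differences were -0.24 (Siglech), -0.175 (Tlr7), -0.14 (Spib), -0.12 (Tcf4, the brightest), -0.09 (Cox6a2), -0.035 (Tlr9) and 0.20 (Pacsin1). Siglech read between 361 and 456, and Spib, Tcf4 and Pacsin1 were highest in number 3 of both groups.

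The 10 macrophage and granulocyte markers summed to between 5317 and 5818 in the controls and between 5287 and 5549 in the EBF arrays. Lyz2 fell, while S100a8, Mpo and Itgam read at most 232. The 5 NK markers summed to between 4360 and 5905 in the controls and between 2506 and 3682 in the EBF arrays. Klrd1 (log2 -2.06) and Nkg7 (-1.695) fell and Gzma (2.78) rose, while Ncr1 (0.04) and Prf1 (0.02) passed in neither fit. The NK sum adds these opposite changes, so it gives no level of NK cells. Number 3 had the lowest NK sum in both groups. Of the pro-B markers, 4 of 10 were highest in number 3 of both groups. The same held for 2 of 10 macrophage and granulocyte markers and 0 of 5 NK markers, beside 13.2% of all genes. No marker is at 0, since every probe set has some intensity. The part of these cells in the values of the interferon-stimulated genes was not tested.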

How the data were processed

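RNA was measured on 6 Affymetrix arrays, 3 per group, from 6 microg total RNA per labelling. Each deposited value is a linear intensity of a probe set; its software and normalization are not stated by any label, header or note at hand. The design text names a rat array, but the platform's gene table is for mouse and was used. Of 45101 probe sets, 64 controls were left out, and of the 45037 tested, 34945 had 1 gene symbol, 932 several and 9160 none. Only probe sets with 1 symbol were named. Log2(intensity + 32) was modelled over all 45037 by limma 3.58.1 (R 4.3.3; lmFit, eBayes, two-sided), with Benjamini-Hochberg adjustment and a threshold of 0.05. Errors are limma's SE without the block, or SD. The blocked fit adds the replicate number; every EBF array correlated best with the control of its own number. Levels of different probe sets are not amounts of RNA that can be compared.

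The members and lists were chosen with earlier results of these data known. Members called in either fit, and the most different and the brightest of each role, were to be given on every array; other members and single markers were named after their values were seen. Alternatives were the pseudocount (8, 128), a filter on dim probe sets, quantile or median scaling, the mean of all probe sets of a gene, a variance trend, the block and arrays left out. Leaving out EBF 3 with control 3, and the further fits with the block, were added after seeing the data. The fit without a block was tested on simulated data that held no effect of the replicate number. The blocked fit was not simulated, so the simulation does not cover its calls. The number of arrays limits the precision.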

Additional observations from a re-analysis of the deposited data

How the results depend on the processing

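The median difference of the 37 interferon-stimulated genes was below 0 under every alternative run, from -0.077 without control 3 to -0.341 without EBF 3 and control 2 together. Without control 3, 24 in place of 29 genes were below 0, and 5 in place of 11 were lower at an unadjusted p under 0.05. That count was 6 without EBF 1, 4 without EBF 2 and 18 without EBF 3. The share of all genes at that unadjusted p was not counted for any fit without an array, so these counts have no background. With the replicate block, 9 of them were lower and 1 higher, 6 pathway genes were lower and 2 higher, and 1330 of all genes changed, against 198 without it. The mean of all probe sets gave 337 changed genes, an intensity trend 308 with 2 pathway genes lower, and the larger pseudocount gave 2 pathway genes lower. Leaving out 1 array gave 0 to 7 of the 37 lower, 0 to 2 higher, 0 to 5 pathway genes lower, 0 to 2 higher, and 44 to 1813 changed genes. The highest counts are without EBF 3, where Trim25, Oas1a, Oas2, Oasl1, Oasl2, Isg20 and Rsad2 were lower and Dhx58 and Xaf1 higher. In that fit 2.89% of all genes were lower and 7.08% higher. The count of 0 lower came without EBF 1, EBF 2, control 1 or control 2 (limma; 6, 4, 9 and 13 lower at an unadjusted p under 0.05). In those fits 0.165%, 0.121%, 0.115% and 0.148% of all genes were called lower, so few calls were left for any gene.

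Without EBF 3 and control 2, 3 of the 37 were lower and 1 higher, with 4 pathway genes lower, 1 higher and 814 changed genes (1.31% lower, 3.17% higher). Without EBF 3 and control 3 these counts were 3, 1, 2, 1 and 635 (1.19% lower, 2.3% higher). The block with the mean of all probe sets gave 10 lower, 4 pathway genes lower, 2 higher and 1421 changed genes (2.58% lower, 5.23% higher). The block without number 1, 2 or 3 gave 2, 3 and 9 lower, where of all genes 82, 162 and 962 were lower and 46, 141 and 1663 higher (2625 in all without number 3), with 2 pathway genes lower without number 2. Without number 3 it gave 3 higher, 7 pathway genes lower and 2 higher.

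Of 740 values of single genes under alternatives, 33 changed sign, all in genes with no call in the fit without a block, and the cause was not tested. Ifi35 went to -0.004 (quantile), -0.017 (median scaling), -0.052 (mean of probe sets, with or without the block) and -0.023 (without EBF 3 and control 2). With the mean of probe sets, with or without the block, Dhx58 went to -0.231, Eif2ak2 to 0.027, Psmb8 to 0.045 and Tap1 to 0.039. Without EBF 3 and control 3, Stat2 was 0.004, Mx2 -0.03 and Tap1 0.035. Leaving out 1 array, or 1 number from both groups with the block, gave -0.085 to 0.083 for Ifi35, -0.228 to 0.04 for Eif2ak2, -0.273 to 0.004 for Stat2, -0.02 to 0.366 for Ifit3, -0.03 to 0.156 for Mx2, -0.087 to 0.035 for Tap1 and -0.026 to 0.165 for Cxcl10. Over the same fits the range was -0.462 to 0.152 for Ifit2, -0.359 to 0.181 for Gbp2, -0.52 to 0.196 for Iigp1 and -0.108 to 0.019 for Psmb9. The call of Isg20 was lost in 4 of its alternatives, each leaving out 1 array.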
